A study of Rattus norvegicus with 12 samples.

Results

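The genes that build, crosslink and cut the collagen matrix were examined in the rat kidney made congestive for 3 days. They were chosen by name and not by a limit on their values, but with earlier results of these data known. The set held every matrix metalloproteinase (Mmp), Adamts protease, tissue inhibitor of metalloproteinases (Timp), lysyl hydroxylase (Plod) and prolyl 4-hydroxylase alpha subunit (P4ha) with a row of its own. It also held Lox, Loxl1 to Loxl4, Serpinh1, Bmp1, Pcolce, Tgm1 and Tgm2. In all 53 of 18166 genes were members, namely 20 Mmp, 14 Adamts, 4 Timp, 5 lysyl oxidases, 2 Plod, 3 P4ha, 3 genes of procollagen handling and 2 transglutaminases. Pcolce2 had no row under its name, and the row of Plod3 carried a second symbol, so neither was used.

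The inferior vena cava was tied between both renal veins in male rats of the Sprague-Dawley strain, aged 7 to 9 weeks. The left kidney, upstream of the ligature, was congestive, and the right kidney of the same 3 operated rats served as control, so that no kidney of an unoperated or sham-operated rat was compared. Cortex and outer medulla of both kidneys gave 4 groups of 3 arrays each (GeneChip Rat Gene 2.0 ST, whole tissue RNA). That a replicate number marks the same rat in both regions is inferred from the labels, so the main comparison of regions did not pair them. Values are on a log2 scale, on which a difference of 1 is 2-fold, and they were compared only within a gene, since probes differ in brightness. A change is given as congestive minus control kidney with the standard error (SE) of the model over 3 pairs, which shares 1 spread over both regions, and a gene is called where the adjusted p of limma over all 18166 genes was under 0.05.

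Fibrillar collagen is made as procollagen inside the cell, where prolyl and lysyl hydroxylases modify it and the chaperone Serpinh1 holds it until it has folded. Outside the cell Bmp1 and some Adamts proteases trim the propeptides, and lysyl oxidases crosslink the fibrils. Mmp and other Adamts proteases degrade matrix, and Timp proteins inhibit them, a balance much studied in interstitial fibrosis of the kidney.

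In congestive kidneys 21 of the 53 genes were higher in cortex (39.6%), where 7.98% of all genes were called higher. In outer medulla 28 were higher (52.8%), where 11.8% of all genes were called higher. All 21 genes called higher in cortex were also called higher in outer medulla. Calls in the other direction were few, with 2 members lower in cortex (3.77%, against 3.64% of all genes) and 3 lower in outer medulla (5.66%, against 11.3%). The median change of the 53 genes was 0.18 in cortex and 0.62 in outer medulla, while the median over all genes was -0.02 and -0.01. The largest rises were those of Lox, Timp1 and Mmp2 in cortex and of Lox, Mmp2 and Timp1 in outer medulla, and 21 members were called in neither region. In whole tissue, more cells of a type and more RNA per cell cannot be told apart.

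**Figure D1:**
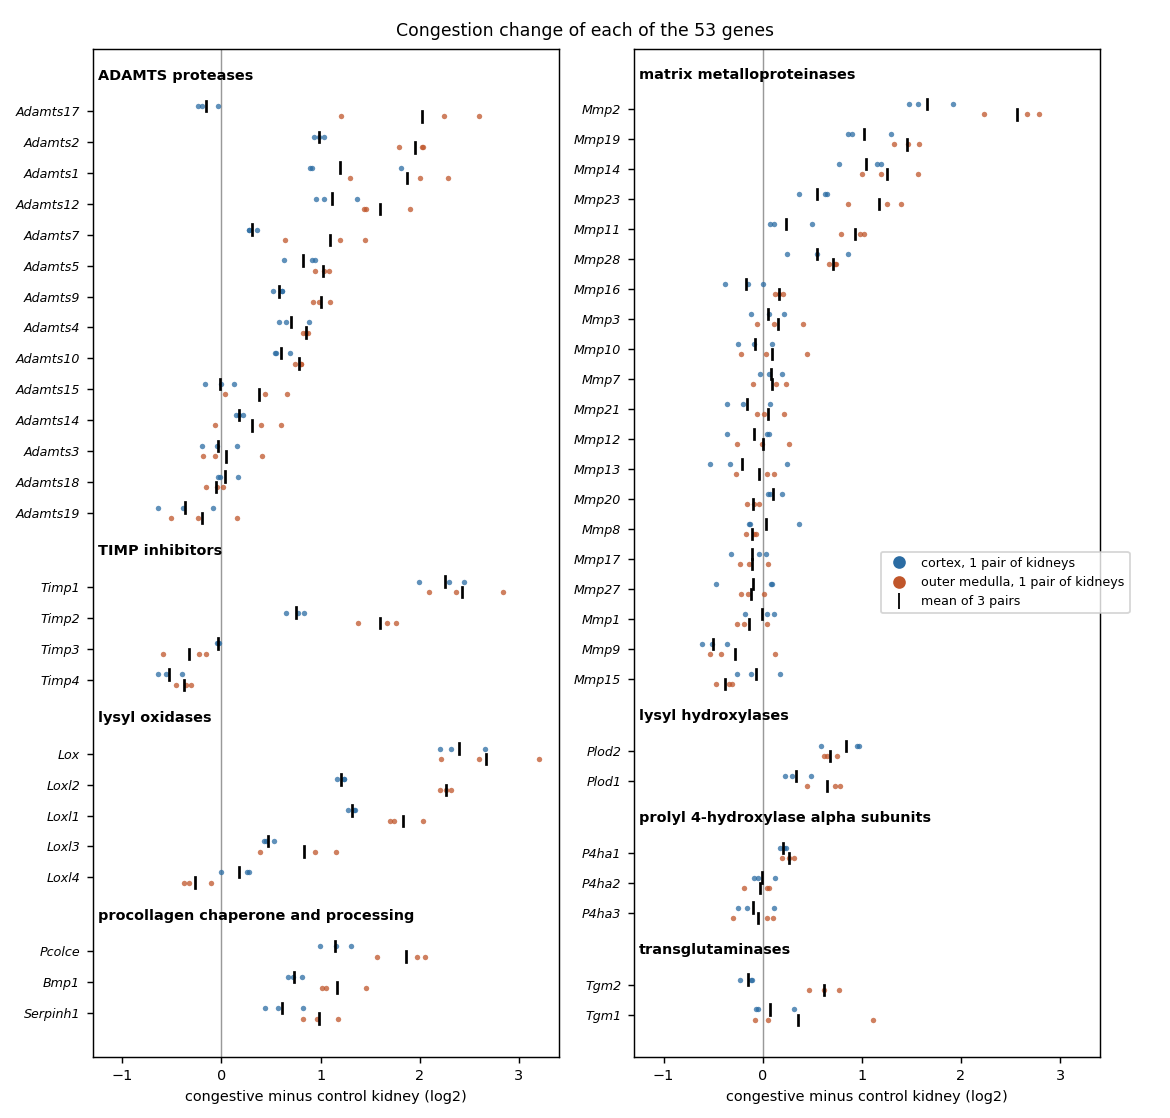
Congestive minus control kidney (log2) for each of the 53 genes, by family and ordered by the change in outer medulla. Points are single pairs of kidneys, blue for cortex and orange for outer medulla, and black bars are means of 3 pairs. Timp1, Timp2, the 3 procollagen genes and all lysyl oxidases but Loxl4 lay to the right of 0 in every pair, while most of the lower Mmp rows lay around 0.

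The libraries showed the regions they were labelled for. In control kidneys all 4 thick ascending limb markers were higher in outer medulla than in cortex (Slc12a1 by 2.13) and all 3 measured podocyte markers were lower (Nphs1, -1.81). Of 4 inner medullary markers 3 were also higher in the tissue labelled outer medulla, Slc14a2 by 1.93. In congestive kidneys all 4 thick ascending limb markers were again higher in outer medulla, and all 3 podocyte markers were again lower. Of 6 cortex proximal tubule markers 4 were lower in outer medulla of control kidneys and 6 in that of congestive kidneys. Under congestion the median of these 6 changed by -0.16 in cortex and -0.46 in outer medulla. Within each group the arrays correlated with r of 0.988 to 0.991, and array medians lay between 6.02 and 6.09. With 3 arrays per group, precision is limited by their number.

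Lysyl oxidases, which oxidise lysines of collagen and elastin so that the fibres crosslink, were called higher for 3 of 5 members in cortex and for 4 of 5 in outer medulla. Lox stood at 5.58, 6.50 and 5.46 on the control cortex arrays (replicates 1, 2 and 3, the order used throughout) and at 8.25, 8.82 and 7.66 on the congestive ones. In outer medulla the control kidneys gave 6.39, 7.18 and 6.20 and the congestive kidneys 9.58, 9.39 and 8.79. No congestive value reached down to a control value in either region. Lox was thus 5.26-fold higher in cortex (2.40 ± 0.17, adjusted p = 0.00027) and 6.36-fold higher in outer medulla (2.67 ± 0.17, adjusted p = 5.09e-05), the largest change among the 53 genes in both.

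Loxl1, needed for elastic fibre renewal, rose from 8.55, 8.86 and 8.48 to 9.83, 10.20 and 9.82 in cortex. It rose from 8.47, 8.74 and 8.36 to 10.49, 10.48 and 10.07 in outer medulla. The 3 pairs of a region moved by nearly the same amount, with means of 1.32 ± 0.08 (adjusted p = 0.00021) and 1.83 ± 0.08 (adjusted p = 1.92e-05). Loxl2, which crosslinks collagen IV of basement membranes, read 7.66, 7.81 and 7.05 in control and 8.83, 9.05 and 8.28 in congestive cortex. In outer medulla it read 7.49, 7.75 and 6.88 in control and 9.75, 9.95 and 9.21 in congestive kidneys. Replicate 3 was the lowest in all 4 groups, and yet the change had the smallest SE of the family, at 1.21 ± 0.07 in cortex and 2.26 ± 0.07 in outer medulla (adjusted p = 0.000173 and 8.21e-06). Loxl3 passed in outer medulla only (0.83 ± 0.13, adjusted p = 0.00339, against 0.47 ± 0.13 and adjusted p = 0.0604 in cortex), and this difference between regions did not pass a test of its own (adjusted p = 0.429). Loxl4 passed in neither, with 0.18 ± 0.09 and -0.27 ± 0.09.

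The 3 genes of procollagen handling were higher in both regions. Pcolce, the enhancer of procollagen C-proteinase, read 7.72, 8.19 and 7.59 in control cortex and 9.03, 9.18 and 8.75 in congestive cortex. Values in outer medulla went from 7.58, 7.94 and 7.40 to 9.63, 9.91 and 8.97. Again the groups did not overlap, and the change was 1.15 ± 0.11 in cortex and 1.86 ± 0.11 in outer medulla (adjusted p = 0.000772 and 3.5e-05). Bmp1, the C-proteinase itself, rose less. Its control and congestive values were 7.40, 7.20, 7.34 and 8.07, 8.01, 8.06 in cortex. The outer medulla gave 7.49, 7.33, 7.36 and 8.50, 8.79, 8.41, again controls first. These are changes of 0.73 ± 0.10 (adjusted p = 0.0036) and 1.17 ± 0.10 (adjusted p = 0.000176). The chaperone Serpinh1 changed by 0.61 ± 0.10 in cortex and 0.98 ± 0.10 in outer medulla (adjusted p = 0.00802 and 0.000433), and its call in cortex was lost without replicate 2 (adjusted p = 0.0558).

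**Figure D2:**
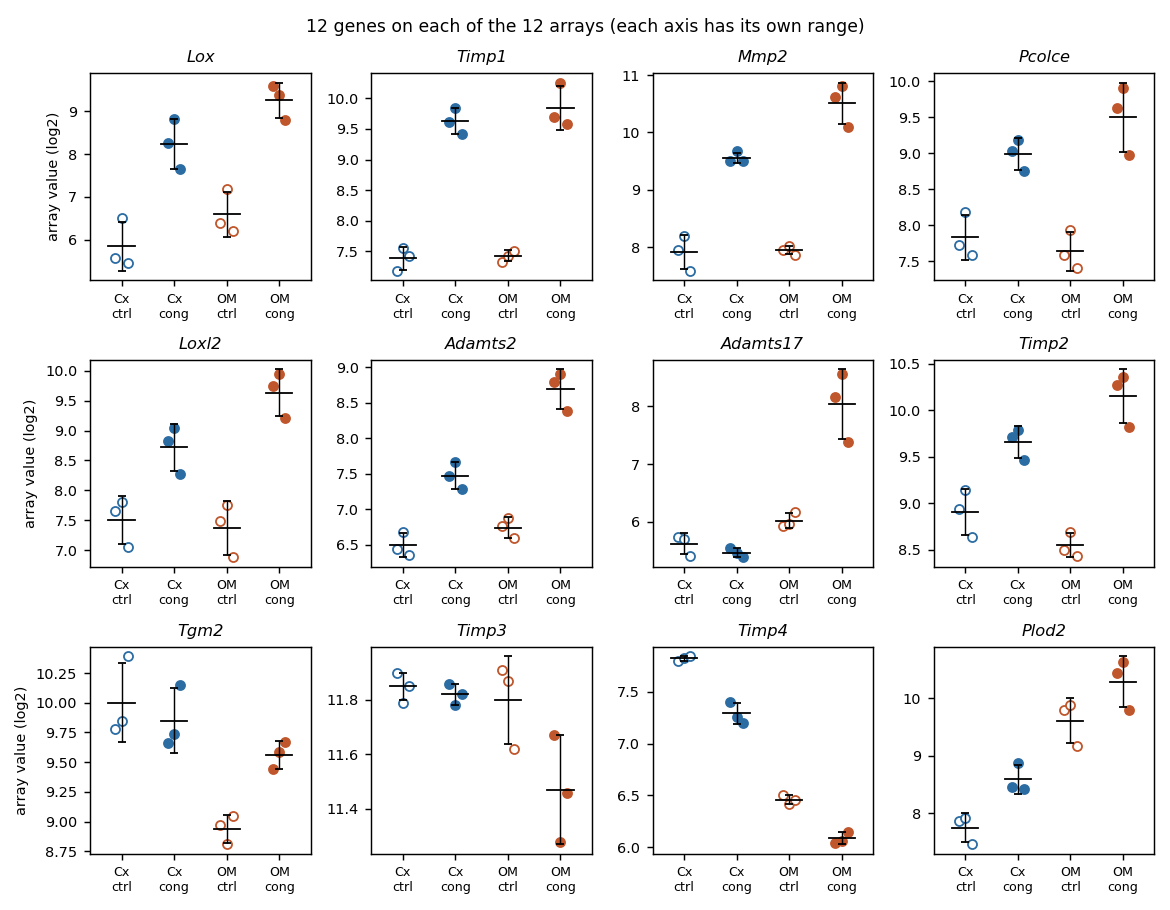
Value of 12 genes on each of the 12 arrays (log2, each panel with its own range), in cortex (Cx, blue) and outer medulla (OM, orange) of control (ctrl, open) and congestive (cong, filled) kidneys. Points are arrays in the order of replicates 1, 2 and 3, lines are means and bars are the SD of 3 arrays. Congestive values of Lox, Timp1, Mmp2 and Pcolce lay above every control value of the same region, Adamts17 separated only in outer medulla, and Timp4 lay below its controls in both regions.

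Of the hydroxylases of procollagen, Plod2 was called higher in both regions, Plod1 and P4ha1 in outer medulla. Plod2, the lysyl hydroxylase of collagen telopeptides, read 7.86, 7.92 and 7.46 in control and 8.45, 8.87 and 8.43 in congestive cortex. The arrays of outer medulla read 9.79, 9.88 and 9.17 in control and 10.44, 10.64 and 9.79 in congestive kidneys, where the groups overlapped although each pair rose. Its change in cortex was 0.84 ± 0.09 (adjusted p = 0.00134). That in outer medulla was 0.68 ± 0.09 (adjusted p = 0.00159, and 0.0638 with no pair block). Plod1, which hydroxylates lysines of the helix, was higher by 0.65 ± 0.09 in outer medulla (adjusted p = 0.00195), with 0.34 ± 0.09 in cortex (adjusted p = 0.0545). Among the catalytic subunits of prolyl 4-hydroxylase only P4ha1 was called, by 0.26 ± 0.07 in outer medulla (adjusted p = 0.0316), and that call was lost without any 1 of the replicates (adjusted p from 0.129 to 0.209). P4ha2 showed -0.01 ± 0.08 and -0.03 ± 0.08, and P4ha3, a dim row, -0.10 ± 0.11 and -0.05 ± 0.11.

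Among the hydroxylases, Plod2, P4ha1 and P4ha2 are known targets of the hypoxia-inducible factors. Known targets in the other families were not listed, so these hydroxylases do not stand for all such targets in the set. For Lox (2.40 in cortex and 2.67 in outer medulla) and Loxl2 (1.21 and 2.26) no window was used. The promoter windows of Plod2, P4ha1 and P4ha2 are shown. Each runs from 250 bases before to 50 bases after the RefSeq start (build GRCr8), on the + strand of chr8:101964068-101964367, chr20:27844796-27845095 and chr10:38743644-38743943. Capitals mark ACGTG, the form of the core of the hypoxia response element that was searched, on either strand. The form GCGTG, which these windows also hold, was not searched and is not marked.
Plod2: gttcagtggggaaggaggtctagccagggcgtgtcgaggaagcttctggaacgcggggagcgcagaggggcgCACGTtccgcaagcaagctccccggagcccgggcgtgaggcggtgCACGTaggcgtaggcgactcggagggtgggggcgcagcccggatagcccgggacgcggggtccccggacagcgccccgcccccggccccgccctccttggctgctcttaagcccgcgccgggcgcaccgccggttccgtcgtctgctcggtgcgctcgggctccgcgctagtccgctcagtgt
P4ha1: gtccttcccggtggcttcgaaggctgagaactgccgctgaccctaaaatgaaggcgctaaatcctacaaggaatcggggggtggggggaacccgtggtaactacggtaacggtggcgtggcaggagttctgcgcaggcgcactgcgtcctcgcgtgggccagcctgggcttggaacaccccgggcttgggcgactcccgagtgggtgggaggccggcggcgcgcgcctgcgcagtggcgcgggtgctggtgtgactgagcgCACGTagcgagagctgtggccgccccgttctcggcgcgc
P4ha2: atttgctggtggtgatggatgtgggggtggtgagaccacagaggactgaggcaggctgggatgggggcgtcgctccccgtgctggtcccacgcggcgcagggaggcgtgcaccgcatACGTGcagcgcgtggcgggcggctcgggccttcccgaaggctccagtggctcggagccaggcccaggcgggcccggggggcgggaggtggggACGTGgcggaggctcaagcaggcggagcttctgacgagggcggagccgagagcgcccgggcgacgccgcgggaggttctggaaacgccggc
ACGTG occurred at 2 places in Plod2, 1 in P4ha1 and 2 in P4ha2, of which P4ha2 was not called. It was found in 11 of the 40 members with a window (27.5%) and in 19.3% of 33469 rat promoter windows. Of these 11 members 4 were called higher and 1 lower in outer medulla, against 16 higher and 2 lower among the 29 without it. A match of letters is not a bound site.

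Inhibitors split. Of the 4 Timp genes, Timp1 and Timp2 were higher in both regions, Timp4 was lower in both and Timp3 was lower in outer medulla. Timp1, a secreted inhibitor and a classical marker of injured kidney, rose from 7.18, 7.55 and 7.42 to 9.62, 9.85 and 9.41 in cortex. It rose from 7.32, 7.42 and 7.50 to 9.70, 10.26 and 9.59 in outer medulla. The control arrays of the regions overlapped and so did the congestive arrays, and the change was 4.75-fold in cortex (2.25 ± 0.14, adjusted p = 0.00021) and 5.4-fold in outer medulla (2.43 ± 0.14, adjusted p = 3.72e-05). Timp2, which also takes part in the activation of Mmp2 by Mmp14, read 8.94, 9.14, 8.64 in control and 9.71, 9.79, 9.47 in congestive cortex. In outer medulla it read 8.50, 8.69, 8.44 and 10.27, 10.36, 9.82. Its rise was 0.75 ± 0.09 in cortex and 1.60 ± 0.09 in outer medulla (adjusted p = 0.00211 and 3.29e-05).

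Timp3, an inhibitor bound to the matrix, showed the smallest change of the 3 members called lower in outer medulla. Its control values there were 11.91, 11.87 and 11.62 and its congestive values 11.67, 11.28 and 11.46, so the groups overlapped. The change was -0.33 ± 0.09 (adjusted p = 0.0404), while in cortex the arrays read 11.90, 11.79 and 11.85 against 11.86, 11.78 and 11.82 (-0.03 ± 0.09, adjusted p = 0.87). Timp4 read 7.80, 7.82 and 7.84 in control and 7.40, 7.26 and 7.20 in congestive cortex. Outer medulla samples read 6.50, 6.42, 6.46 and 6.04, 6.06, 6.15, again with no overlap. Its change was -0.53 ± 0.08 in cortex (adjusted p = 0.00473). The change in outer medulla was -0.38 ± 0.08 (adjusted p = 0.0106). In outer medulla the call of Timp3 was lost without any 1 of the replicates (adjusted p from 0.0635 to 0.272) and that of Timp4 without replicate 1 (0.0894) or 2 (0.0792). The call of Timp4 in cortex was lost without replicate 2 (0.0638) or 3 (0.0541).

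The Mmp family also split, and it did so by gene. Of 20 members 5 were called higher in cortex and 6 in outer medulla. Mmp2, gelatinase A, which mesenchymal cells make, rose from 7.94, 8.19 and 7.59 to 9.51, 9.67 and 9.51 in cortex. It rose from 7.95, 8.02 and 7.87 to 10.62, 10.81 and 10.10 in outer medulla. The change was 3.15-fold in cortex (1.66 ± 0.13, adjusted p = 0.000369) and 5.9-fold in outer medulla (2.56 ± 0.13, adjusted p = 2.35e-05). Mmp14, the membrane-anchored protease that activates Mmp2, read 8.0, 7.90, 7.55 in control and 8.77, 9.09, 8.70 in congestive cortex. The arrays of outer medulla read 8.31, 8.30, 7.94 and 9.32, 9.87, 9.13. These are 1.04 ± 0.13 (adjusted p = 0.00201) and 1.25 ± 0.13 (adjusted p = 0.000384), so that the protease and its activator were higher together.

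Mmp19, a secreted protease with broad substrates, went from 6.21, 6.28 and 6.23 to 7.07, 7.58 and 7.13 in cortex (1.02 ± 0.10, adjusted p = 0.000998). In outer medulla it went from 6.32, 6.42 and 6.14 to 7.79, 8.0 and 7.45 (1.46 ± 0.10, adjusted p = 7.66e-05). Mmp23 gave 7.02, 6.92, 6.65 and 7.39, 7.55, 7.30 in cortex. The outer medulla gave 6.40, 6.70, 6.51 and 7.79, 7.95, 7.37, again controls first. Its change of 1.17 ± 0.11 in outer medulla (adjusted p = 0.000322) passed, and that of 0.55 ± 0.11 in cortex (adjusted p = 0.019) was lost without replicate 2 (0.15) or 3 (0.061). Mmp28, on a dim row, was higher by 0.55 ± 0.11 and 0.71 ± 0.11 (adjusted p = 0.0183 and 0.00314), and the call in cortex was lost without replicate 1 (0.113) or 2 (0.133). Mmp11, stromelysin-3, first found around invasive tumours, read 7.93, 7.83 and 8.38 in control and 8.04, 8.33 and 8.45 in congestive cortex (0.23 ± 0.10, adjusted p = 0.195). Outer medulla samples read 6.94, 7.18 and 7.10 against 7.96, 7.97 and 8.09 (0.93 ± 0.10, adjusted p = 0.000584), with all congestive arrays above all controls.

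The family had 1 decrease called in each region. Mmp9, gelatinase B, read 8.06, 8.16 and 7.24 in control and 7.45, 7.80 and 6.73 in congestive cortex. Every pair fell but the groups overlapped, by -0.50 ± 0.13 (adjusted p = 0.0409), and the call was lost without any 1 of the replicates (adjusted p from 0.0622 to 0.185) and with no pair block (0.278). In outer medulla its values were 6.01, 6.21, 5.97 and 5.60, 5.68, 6.09 (-0.28 ± 0.13, adjusted p = 0.167). Mmp15, a membrane-anchored relative of Mmp14, read 8.93, 8.80, 8.34 in control and 8.46, 8.46, 8.03 in congestive outer medulla. Here too each pair fell while the groups overlapped, by -0.38 ± 0.09 (adjusted p = 0.0234), and the call was lost without any 1 of the replicates (adjusted p from 0.0621 to 0.132) and with no pair block (0.116). In cortex Mmp15 read 7.86, 7.68, 7.69 and 7.61, 7.85, 7.56 (-0.07 ± 0.09). The gelatinases Mmp2 and Mmp9 thus stood on opposite sides of 0 in cortex, with 1.66 and -0.50.

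The Mmp genes that were not called lay mostly together in the genome. Side by side on chromosome 8 were 9 members, in the order Mmp13, Mmp12, Mmp3, Mmp1, Mmp10, Mmp8, Mmp27, Mmp20 and Mmp7, with Mmp1b as the only other coding gene of the RefSeq annotation between them.
They include the interstitial collagenases (Mmp1, Mmp8, Mmp13), the stromelysins Mmp3 and Mmp10, matrilysin (Mmp7), macrophage elastase (Mmp12) and the enamel protease Mmp20. All 9 read below 6.04, the median of all rows, and 0 of 9 were called in either region by limma. Of all genes 7.98% were called higher and 3.64% lower in cortex, and 11.8% and 11.3% in outer medulla. With only 9 genes, 0 calls is not far from these shares. Their changes lay between -0.21 and 0.10 in cortex and between -0.14 and 0.15 in outer medulla. Mmp12 gave 5.29, 5.65 and 5.14 in control and 5.32, 5.72 and 4.78 in congestive cortex, although the macrophage markers described below rose on the same arrays. At such low values a change in few cells may not have been detectable. The other uncalled members of the family were Mmp16, Mmp17 and Mmp21, also below that median, with changes between -0.17 and 0.16.

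The promoters of this cluster carry the AP-1 element for which stromelysin and collagenase genes are known, and so the stretch around it is shown for the 7 of these genes that hold it. AP-1 was searched as TGANTCA, with N as any base, a pattern that reads as itself on both strands. The 41 bases around the match nearest the start come from RefSeq build GRCr8, + strand, at chr8:12782746-12782786 (Mmp13), chr8:12866548-12866588 (Mmp12), chr8:12925193-12925233 (Mmp3), chr8:12943352-12943392 (Mmp1), chr8:12974629-12974669 (Mmp10), chr8:13074166-13074206 (Mmp20) and chr8:13132946-13132986 (Mmp7). Capitals mark the element.
Mmp13: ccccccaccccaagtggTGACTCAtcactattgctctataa
Mmp12: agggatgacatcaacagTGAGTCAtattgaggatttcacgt
Mmp3: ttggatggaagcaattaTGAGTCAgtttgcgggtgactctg
Mmp1: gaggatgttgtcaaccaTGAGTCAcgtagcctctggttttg
Mmp10: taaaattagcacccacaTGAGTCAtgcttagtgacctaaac
Mmp20: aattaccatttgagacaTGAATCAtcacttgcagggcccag
Mmp7: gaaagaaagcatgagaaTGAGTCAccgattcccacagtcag
The element began between 61 and 96 bases before the start. On the + strand 5 of the 7 read TGAGTCA, and TGACTCA of Mmp13 is that same site on the other strand. Mmp20 read TGAATCA, which matched only because N stood for any base. It was found in 7 of 40 members with a window (17.5%) and in 7.3% of all windows, and in 0 members outside this cluster. None of the 7 was called in either region by limma, while of the 33 members without the element 14 were called higher in cortex and 20 in outer medulla. All 7 also lay below the median of all rows, so the element, the cluster and low brightness cannot be told apart here. The SMAD element GTCTAGAC was in 0 of 40 windows and in 0.2% of all. Lox, Loxl2, Mmp2, Mmp14, Mmp19, Bmp1 and Adamts5 are among the 13 members for which no window was used.

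Adamts proteases were called higher for 7 of 14 members in cortex and for 9 in outer medulla, and none was called lower in either (limma). Adamts2, which trims the N-propeptide of procollagen, read 6.44, 6.68 and 6.35 in control and 7.47, 7.66 and 7.28 in congestive cortex (0.98 ± 0.08, adjusted p = 0.000433). The arrays of outer medulla read 6.76, 6.88 and 6.59 against 8.79, 8.91 and 8.38 (1.95 ± 0.08, adjusted p = 1.4e-05). The other N-propeptidases did not follow, with 0.18 ± 0.12 and 0.31 ± 0.12 for Adamts14 and -0.03 ± 0.12 and 0.05 ± 0.12 for Adamts3, both on dim rows.

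Of 5 members that cut the proteoglycans aggrecan or versican, Adamts1, Adamts4, Adamts5 and Adamts9 were called higher in both regions. Adamts1 read 8.37, 8.0, 8.85 in control and 9.27, 9.81, 9.75 in congestive cortex. In outer medulla it read 7.50, 7.51, 7.65 and 8.80, 9.80, 9.65. It was higher by 1.20 ± 0.22 (adjusted p = 0.0124) and 1.87 ± 0.22 (adjusted p = 0.000851), with the widest spread between pairs among the genes with a change of at least 2-fold in both regions. Controls first, Adamts5 gave 7.85, 8.09, 7.57 and 8.79, 8.72, 8.48 in cortex. The outer medulla gave 8.35, 8.62, 8.06 and 9.43, 9.56, 9.09, again controls first. Its changes were 0.82 ± 0.09 (adjusted p = 0.00105) and 1.02 ± 0.09 (adjusted p = 0.000157). Adamts9 gave 7.98, 8.18, 7.81 and 8.59, 8.69, 8.41 in cortex. The outer medulla gave 8.23, 8.30, 7.81 and 9.21, 9.39, 8.73, again controls first. It changed by 0.58 ± 0.07 (adjusted p = 0.0023, and 0.0568 with no pair block) and 1.0 ± 0.07 (adjusted p = 8.4e-05). Adamts4 was higher by 0.70 ± 0.08 and 0.85 ± 0.08 (adjusted p = 0.00163 and 0.000298). Adamts15 was not called for congestion, with -0.01 ± 0.12 and 0.38 ± 0.12 (adjusted p = 0.958 and 0.0565).

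Of the proteases known to cut cartilage oligomeric matrix protein, Adamts12 read 6.93, 7.18 and 6.43 in control and 7.96, 8.13 and 7.80 in congestive cortex (1.12 ± 0.12, adjusted p = 0.00117). Outer medulla samples read 7.03, 7.28 and 6.69 against 8.93, 8.72 and 8.15 (1.60 ± 0.12, adjusted p = 9.41e-05). Adamts7 passed in outer medulla, from 6.13, 5.63 and 5.93 to 7.33, 7.08 and 6.57 (1.09 ± 0.14, adjusted p = 0.0011). Its cortex values were 6.04, 6.33, 6.27 and 6.32, 6.68, 6.55 (0.31 ± 0.14, adjusted p = 0.196), and the difference between the regions did not pass (0.79 ± 0.19, adjusted p = 0.101). Adamts10, a protein of fibrillin microfibrils, was higher by 0.60 ± 0.07 in cortex and 0.78 ± 0.07 in outer medulla (adjusted p = 0.00194 and 0.000248). Adamts18 and Adamts19 stayed uncalled, with changes between -0.37 and 0.04.

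In 5 genes the change in outer medulla exceeded that in cortex by a test of the difference itself (9.43% of members, against 0.804% of all genes). These were Adamts17, Loxl2, Adamts2, Timp2 and Tgm2. No member was called in the other direction by limma (0 of 53, against 0.815% of all genes), and 19 of the 53 had an unadjusted p under 0.05 for a difference of either sign, as did 15.2% of all genes. The largest was that of Adamts17, mutated in a Weill-Marchesani-like syndrome of humans. Adamts17 read 5.74, 5.70 and 5.41 in control and 5.54, 5.46 and 5.38 in congestive cortex. The arrays of outer medulla read 5.93, 5.96 and 6.17 in control and 8.17, 8.56 and 7.38 in congestive kidneys. The change was thus -0.16 ± 0.22 in cortex and 2.02 ± 0.22 in outer medulla (4.06-fold, adjusted p = 0.000585), and the difference was 2.18 ± 0.31 (adjusted p = 0.0219). Every cortex value lay below 6.04, the median of all rows, where a change in few cells may not have been detectable.

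Tgm2, the tissue transglutaminase that links matrix proteins through glutamine and lysine, was the other of the 5 that was called for congestion in outer medulla and not in cortex. Its cortex values were 9.78, 9.85 and 10.39 in control and 9.66, 9.74 and 10.15 in congestive kidneys, lower in each pair by a little and not called (-0.15 ± 0.08, adjusted p = 0.267). In outer medulla it went from 8.97, 8.81 and 9.05 to 9.44, 9.59 and 9.67 (0.62 ± 0.08, adjusted p = 0.00136), and the regions differed by 0.78 ± 0.12 (adjusted p = 0.0239). For Loxl2, Adamts2 and Timp2, which rose in both regions, the difference was 1.05 ± 0.10 (adjusted p = 0.00696), 0.97 ± 0.11 (0.0113) and 0.86 ± 0.13 (0.0255). All 5 differences kept their sign without any 1 of the replicates, but none passed without replicate 1 (adjusted p from 0.144 to 0.235) or 2 (0.0736 to 0.204), and Adamts17 alone passed without replicate 3. With no pair block only Adamts17 passed. Tgm1, the transglutaminase of skin, was not called anywhere (0.07 ± 0.21 and 0.36 ± 0.21 for congestion). By adjusted p Mmp2 came next, with 0.91 ± 0.18 (adjusted p = 0.0565), and Lox and Timp1, the genes that rose most in cortex, gave 0.27 ± 0.24 and 0.19 ± 0.20.

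**Figure D3:**
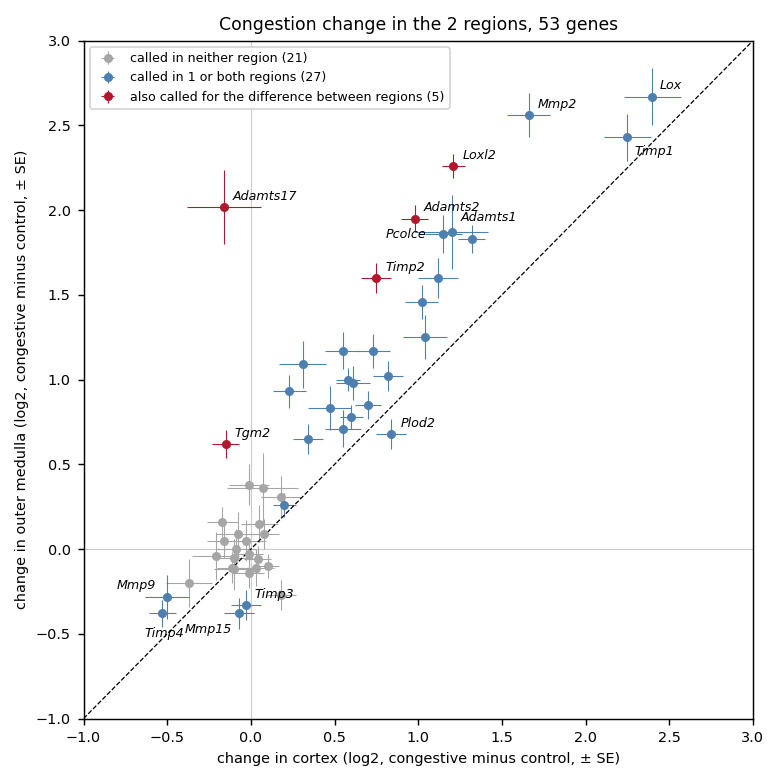
Congestion change in outer medulla against that in cortex (log2, ± SE) for the 53 genes. The dashed line marks equal change, red points are the 5 genes called for the difference between regions, blue points 27 others called in a region and grey points 21 called in neither. Adamts17 and Tgm2 lie above 0 on the outer medulla axis and just below 0 on the cortex axis, and Lox and Timp1 lie near the line of equal change.

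The promoter window of Adamts17 is given since the change of this gene differed most between the regions. It lies at chr1:129855812-129856111, + strand, of RefSeq build GRCr8, and capitals mark ACGTG on either strand, as above.
Adamts17: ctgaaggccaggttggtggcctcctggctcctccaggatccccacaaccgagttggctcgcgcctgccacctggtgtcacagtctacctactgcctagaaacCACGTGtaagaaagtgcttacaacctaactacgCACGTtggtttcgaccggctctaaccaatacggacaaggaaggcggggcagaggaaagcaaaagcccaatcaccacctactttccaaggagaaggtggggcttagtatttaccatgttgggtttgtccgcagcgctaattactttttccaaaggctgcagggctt
The core matched 3 times, of which 2 overlap on opposite strands, between 115 and 148 bases before the start. Mmp12, which was not called, also held 3 matches in its window.

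In control kidneys few of the 53 genes were called between the regions. Against cortex, outer medulla was higher for 3 members (5.66%, with 11.4% of all genes) and lower for 5 (9.43%, with 10.1%). The higher ones were Plod2 by 1.87 ± 0.24 (adjusted p = 0.000135), Mmp15 by 0.95 ± 0.16 (0.000963) and Loxl4 by 0.77 ± 0.13 (0.000982). The lower ones were Mmp9 by -1.76 ± 0.28 (adjusted p = 0.000605), Timp4 by -1.36 ± 0.07 (2.25e-07), Tgm2 by -1.06 ± 0.16 (0.000574), Mmp11 by -0.97 ± 0.14 (0.000367) and Adamts1 by -0.85 ± 0.26 (0.036). The call of Adamts1 was lost without any 1 of the replicates (adjusted p from 0.0548 to 0.197).

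In congestive kidneys more of the set stood higher in outer medulla than in cortex, 12 members (22.6%, with 8.96% of all genes), while 4 stood lower (7.55%, with 9.73%). The higher ones were Adamts17 (2.58 ± 0.23), Plod2 (1.71 ± 0.24), Adamts2 (1.22 ± 0.15), Mmp2 (0.95 ± 0.17), Loxl2 (0.92 ± 0.28), Adamts5 (0.70 ± 0.17), Mmp15 (0.64 ± 0.16), Bmp1 (0.52 ± 0.10), Mmp19 (0.49 ± 0.15), Timp2 (0.49 ± 0.16), Mmp28 (0.40 ± 0.12) and Adamts15 (0.37 ± 0.12). The lower ones were Mmp9 (-1.54 ± 0.28), Timp4 (-1.20 ± 0.07), Timp3 (-0.35 ± 0.10) and Adamts18 (-0.28 ± 0.09). Same-numbered congestive arrays of the regions deviated together (r from 0.259 to 0.339), and with the kidney as a block 20 members were higher. Adamts15 was then lost (adjusted p = 0.0906), while 9 were gained, Lox (1.02, adjusted p = 0.00146), Mmp14 (0.59, 0.00209) and Pcolce (0.52, 0.009) among them. Plod2, Mmp15, Mmp9 and Timp4 were called in the same direction in both conditions. Only Adamts17, Adamts2 and Plod2 of the 12 and Timp4 of the 4 kept their call without any 1 of the replicates. The comparisons in control and in congestive kidneys use the same arrays as the congestion changes, and so their values are given side by side and not set against each other.

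**Figure D4:**
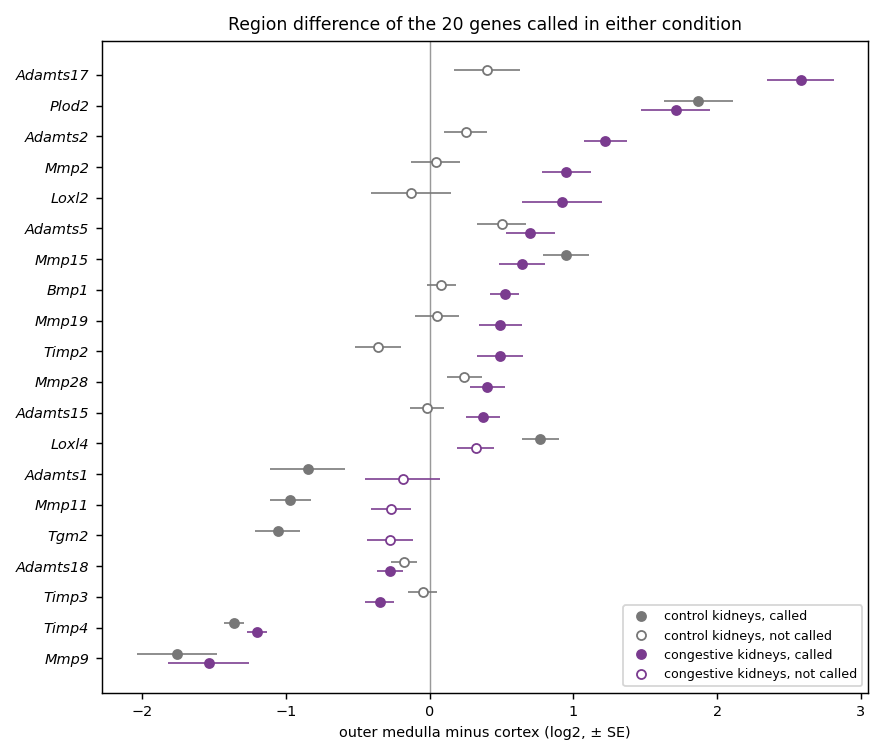
Outer medulla minus cortex (log2, ± SE) in control kidneys (grey) and in congestive kidneys (purple) for the 20 genes called in either condition. Filled points were called and open points were not. Of these genes 4 were called in both conditions, Plod2 and Mmp15 as higher and Timp4 and Mmp9 as lower in outer medulla.

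Replicates of a group did not change equally. The median change of the 53 genes was 0.23, 0.22 and 0.13 in the 3 pairs of cortex and 0.60, 0.76 and 0.41 in those of outer medulla. Of the 28 genes called higher in outer medulla, 17 changed least in pair 3 and 24 had their lowest congestive value on array 3. Of the 21 called higher in cortex, 6 changed least in pair 3 and 15 had their lowest congestive value on array 3. Control array 3 of outer medulla was lowest of its group for Lox, Loxl2 and Plod2 among others, and highest for Timp1 and Adamts17. A low value on array 3 was thus not confined to congestive kidneys. The share over all genes was not taken for these counts. Of all 53 members, 25 in cortex and 28 in outer medulla had every congestive array above every control array, which held for 17.2% and 18.4% of all genes.

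Brightness went with the calls. Of the 21 members below the median of all rows only Adamts4 and Mmp28 were called for congestion, both higher in both regions. Of the 32 brighter members 19 were called higher in cortex and 26 in outer medulla. Brightness is the mean over all 12 arrays, congestive ones included, so a rise itself lifts a gene and part of this link is built in. Adamts17, at 6.28, lay above the median of 6.04 through congestive outer medulla (mean 8.04). Its means were 5.62 in control cortex, 5.46 in congestive cortex and 6.02 in control outer medulla.

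Markers of cells that make or cut matrix moved on the same arrays. Of 13 markers of mesenchyme, fibroblasts and pericytes 9 were higher in cortex and 11 in outer medulla, among them Pdgfrb (1.16 ± 0.08 and 1.66 ± 0.08), while Cspg4 and Rgs5 were not called. The log2 of their summed level was 11.68 to 12.24 in control and 13.03 to 13.48 in congestive cortex, and 12.19 to 12.46 and 13.69 to 14.19 in outer medulla. Of 12 macrophage and monocyte markers 9 were higher in cortex and 12 in outer medulla, with summed levels of 11.58 to 11.81 and 12.81 to 13.05 in cortex and of 11.83 to 12.04 and 13.14 to 13.50 in outer medulla. Among congestive arrays of outer medulla both sums were lowest on array 3 (13.69 and 13.14), the array on which 24 members were lowest. The mesenchyme sum was also lowest on array 3 in control (11.68) and congestive cortex (13.03), but not in control outer medulla. None of 6 neutrophil and mast cell markers was called (limma), and their sum stayed between 7.10 and 7.36. Of 6 T and B cell markers Cd4, which rat macrophages also carry, rose in both regions and Cd8a in outer medulla, while Cd3e, Cd3d, Cd3g and Ms4a1 were not called. Of the red cell list 2 genes were measured, and Slc4a1, also an intercalated cell gene, was lower in both regions. Congestive outer medulla arrays also differed in markers of other zones. Their summed cortex proximal tubule markers were 13.46, 12.83 and 13.90 (controls 13.87, 13.88 and 13.90). Their distal convoluted tubule markers were 8.23, 7.83 and 9.23 (controls 8.59, 8.92 and 9.02). Both were highest on array 3 in congestive and in control kidneys. Inner medulla markers were 11.30, 11.29 and 10.67 (controls 11.18, 11.17 and 10.87), lowest on array 3 in both. Of 4 thick ascending limb markers 3 were lower in both regions, and of 5 collecting duct markers 3 were lower in cortex and 4 in outer medulla. Of 6 cortex proximal tubule and 3 outer stripe markers, 1 each was lower in outer medulla and 0 in cortex (limma), and of 3 distal convoluted tubule markers 1 was lower in cortex and 0 in outer medulla. The part of these cells and zones in the changes was not tested.

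Other genes of the same processes followed in part. Of all genes 7.98% were called higher in cortex and 11.8% in outer medulla. These lists overlap with the mesenchyme markers above. Col1a1 and Col3a1 are also substrates, and Dcn and Lum are also in the list of collagen processing, so their rises are counted again. Among 15 substrates 10 were higher and 2 lower in each region, with Col1a1 at 1.60 ± 0.11 in cortex and 2.63 ± 0.11 in outer medulla and Eln, the elastin that Lox and Loxl1 crosslink, at 0.82 ± 0.20 and 1.96 ± 0.20. The 2 lower ones were Col4a3 and Col4a4, chains of the mature glomerular basement membrane (-0.45 and -0.49 in cortex). Among 15 other genes of collagen processing 5 were higher in cortex and 11 in outer medulla, where P3h2 was lower, and Fkbp10, a chaperone that works with Plod2, reached 1.02 ± 0.09 and 1.47 ± 0.09. P4hb, the beta subunit that pairs with the P4ha chains, was not called (0.24 ± 0.07 and 0.05 ± 0.07).

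Of 18 plasminogen, cathepsin and other protease genes 5 were higher in cortex, while outer medulla had 8 higher and 4 lower. Ctsk, a collagen-cutting cathepsin, rose by 1.14 ± 0.07 and 1.56 ± 0.07 and Serpine2, an inhibitor of plasminogen activators, by 0.81 ± 0.10 and 1.98 ± 0.10, whereas Plau and Plaur were not called. The 4 lower in outer medulla were Hpn, St14, Mep1a and Serpinf2, of which the first 3 are epithelial proteases. Of 6 ADAM sheddases 3 were higher in each region, led by Adam12 (1.18 ± 0.09 and 2.13 ± 0.09). Of 10 other inhibitors and regulators 6 were higher in each region and Spock2 was lower in outer medulla. A2m, a broad protease inhibitor of plasma, gave the widest regional gap of these lists, with 1.10 ± 0.14 in cortex against 3.24 ± 0.14 in outer medulla. The regions differed here by 2.14 (adjusted p = 0.00663). Reck, a membrane inhibitor of Mmp proteases, rose by 0.51 ± 0.11 and 1.07 ± 0.11.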

How the data were processed

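RNA of 12 kidney samples was measured on Affymetrix arrays. The authors normalized the values with Affymetrix Expression Console, per the labels, and the deposited table holds them on a log scale taken as log2. The sources used do not give the log base, version or summarization method. Signal over background is unknown. Groups came from the sample labels, and both cortex replicate 3 arrays were numbered by their titles, since their source names read 2. Of 36685 rows, 18511 carried 1 gene symbol. Keeping the brightest row per symbol left 18166 genes, with no filter on dim ones. No member had a further row.

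Kidneys were compared with limma 3.58.1 (R 4.3.3) with 6 pair blocks, which also gave the interaction, and regions in a model of 4 group means. Adjustment was by Benjamini-Hochberg over all genes at 0.05. The procedure was tested on simulated data. Pairs rest on the replicate numbers and on both kidneys of a rat being compared in the study's methods. Deviations of same-numbered arrays correlated with r from -0.000317 to 0.344 (cortex) and 0.169 to 0.25 (outer medulla). In cortex the lowest was that of pair 1. Control array 1 correlated better with congestive array 2 (0.0941), and congestive array 1 with control array 2 (0.0944). Every other array correlated best with its own number. Members, gene lists and tests were chosen with earlier results of these data known. Every array is given for members called with at least 2-fold change, called lower or called for the interaction, and for the 6 largest control differences between regions. Alternatives were other blocks, moderation, filters, row choices and scalings, the omission of each replicate, a limit of 1.5-fold and a paired t-test. Promoter windows came from RefSeq (GRCr8), where 40 members matched by gene ID.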

Additional observations from a re-analysis of the deposited data

Results flagged for a closer look

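The congestion change differed between the regions, by the interaction test of limma, in 5 members. The change of outer medulla exceeded that of cortex (log2) by 2.18 for Adamts17, 1.05 for Loxl2, 0.97 for Adamts2, 0.86 for Timp2 and 0.78 for Tgm2. In each of the 5 all 3 pairs rose in outer medulla. In cortex all 3 pairs rose for Loxl2, Adamts2 and Timp2, and all 3 fell for Adamts17 and Tgm2, whose cortical changes were not called. Adamts17 read below the median of all rows on every cortex array. With 3 arrays a group, single arrays far from the others could not be searched for.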

How the results depend on the processing

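Of the 21 genes called higher in cortex 17, and of the 28 in outer medulla 26, remained called under each alternative that tested them, the 1.5-fold limit and the t-test aside. Adamts4 and, in outer medulla, Mmp28 lie below the median of all rows and were not tested in the fit over genes above it. With no replicate block for the pairs, 1 member was called lower in cortex (Mmp9 was lost) and 1 had a greater change in outer medulla than in cortex, against 2 and 5. A replicate block over both regions left 4 of those 5, all but Timp2 (adjusted p = 0.0539). The trend and robust options of limma gave 12, and a test over genes above the median of all rows gave 11. Adamts17 entered that last test only through its congestive outer medulla arrays. Without 1 replicate, members called lower numbered 0 to 1 in cortex and 0 to 2 in outer medulla. The greater change in outer medulla was then called for 0 to 2, and in congestive kidneys 3 to 15 members stood higher and 1 to 2 lower in outer medulla than in cortex. In the other comparisons these omissions gave 18 to 20 higher in cortex, 27 to 29 higher in outer medulla, and 3 to 4 higher and 4 to 6 lower in the control regions. The cause of these moves was not tested. Fewer arrays enter such a fit.

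With the kidney as replicate block in the comparison of regions, 7 members were called higher in outer medulla in control kidneys, against 3, and 20 in congestive kidneys, against 12. The deviations of same-numbered cortex and outer medulla arrays correlated with r of 0.0501 to 0.204 in control and 0.259 to 0.339 in congestive kidneys, and every array but those of control replicate 2 correlated best with its own number.

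A limit of 1.5-fold left 0 members lower in either region, and 7 higher and 2 lower in outer medulla of congestive kidneys. A t-test, which the methods name for comparing groups without giving pairing or arrays and which was run paired here, called 0 members in either direction in either region after Benjamini-Hochberg adjustment, while unadjusted it gave 23 higher and 2 lower in cortex, and for outer medulla 28 higher and 2 lower. The unadjusted limma test gave p under 0.05 for 27 and 34 members in either direction, with 27.5% and 34.1% of all genes. No result changed sign where it was called, and quantile normalization or centring moved the median of all genes by at most 0.04 on the log2 scale.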
